A study of Zea mays with 6 samples.

Results

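Transcript levels of 4 nitrogen genes were followed in roots of maize (Zea mays) on 6 single-colour NimbleGen arrays: the glutamine synthetase genes gln1 (GRMZM2G098290) and Gln1-4 (GRMZM2G036464), the glutamate synthase gene fgs1 (GRMZM2G036609) and the nitrate transporter gene nrt2.2 (GRMZM2G010251). They are 4 of the 39219 genes on the array and are read by 7 of its 59756 transcripts. They were picked with their differences on these same arrays already known, so their values between the groups are a description and carry no test. The 3 arrays labelled Fe-deficient hold roots of PR33T56 plants, 19 d old, that never received iron in solution and stayed without Fe-EDTA over the last 7 days. The 3 arrays labelled Fe-sufficient hold roots of plants of the same age and genotype that first grew in the same solution without iron and then had 100 µM Fe-EDTA for 7 days. The labels call PR33T56 a hybrid, whereas the study's methods call it an inbred line. In both groups ammonium nitrate was the nitrogen source, each array carried RNA from the pooled roots of 6 plants, and the 3 replicates of a group came from separate cultivations.

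Nitrate enters root cells through transporters such as the high-affinity NRT2 family, which works with NAR2 partner proteins. It is reduced to nitrite by nitrate reductase and to ammonium by nitrite reductase, an enzyme that takes its electrons from ferredoxin. Glutamine synthetase joins ammonium to glutamate, with cytosolic forms (GS1) and a plastid form (GS2), and glutamate synthase turns glutamine and 2-oxoglutarate back into glutamate. In the RefSeq gene table, gln1 also bears the names GLN2 and gs2, Gln1-4 the names gln5 and gs1-4, and fgs1 the name GLSF, that of the glutamate synthase that uses ferredoxin.

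The array set as a whole had limits that touch these values. All arrays shared 1 slide, with the arrays labelled Fe-deficient at positions 10, 11 and 12 and those labelled Fe-sufficient at positions 7, 8 and 9, so position and group cannot be told apart. Of the 6 iron genes that the study followed by PCR, 0 were called between the groups in 8 transcripts (lowest adjusted p of 0.491 in limma). In their brightest transcripts, YS1 and NRAMP1 were lower on the arrays labelled Fe-deficient, without overlap (log2 differences of -0.47 and -0.50). The differences were 0.61 for TOM1, 0.06 for PHT1;7, -0.03 for OPT7 and -0.21 for ferritin. The study reports ferritin as lower under Fe deficiency and the other genes of this set as higher. The phytosiderophore exporter gene TOM1 had log2 levels of 12.61, 11.14 and 12.59 in roots labelled Fe-deficient, against 8.49, 13.51 and 12.52 on the arrays labelled Fe-sufficient. The first array labelled Fe-sufficient thus stood apart from the other two of its label, and over all transcripts it correlated on average at 0.976 with the arrays of the other label and at 0.967 with those of its own. For this reason the groups are named by their labels, and values without that array are given below. The 3 root marker genes (rtcs, rth3 and the YS1 gene named above) were above background on all 6 arrays. So were 9 of 14 leaf photosynthesis genes, with 0 called in either list. The mean log2 level of the leaf list lay between 8.82 and 9.29 in roots labelled Fe-deficient and between 8.71 and 8.89 in roots labelled Fe-sufficient. Single leaf genes still stood out on an array. The level of lhcb6 was 12.97 on replicate 2 labelled Fe-deficient and at most 9.75 elsewhere. For lhcb3 it was 13.31 on replicate 3 labelled Fe-sufficient and at most 11.24 elsewhere.

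The 4 genes did not move together. On the arrays labelled Fe-deficient, both transcripts of gln1 and both of fgs1 lay above all arrays labelled Fe-sufficient, both transcripts of Gln1-4 lay below them, and the groups overlapped for nrt2.2. In pooled whole roots, fewer cells that express a gene and less of its RNA per cell cannot be told apart. Groups without overlap were thus seen for 6 of 7 transcripts, 4 above and 2 below, where 17.4% of all transcripts on the array had them, 9.75% above and 7.65% below. A transcript was called where limma gave an adjusted p no higher than 0.05 over all transcripts and the fold change reached 1.5. By this rule 1 of the 7 was called, as higher, against 0.0853% of all transcripts, 0.0703% as higher and 0.0151% as lower. Because the genes were chosen on this contrast, neither count says anything about them.

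**Figure D1:**
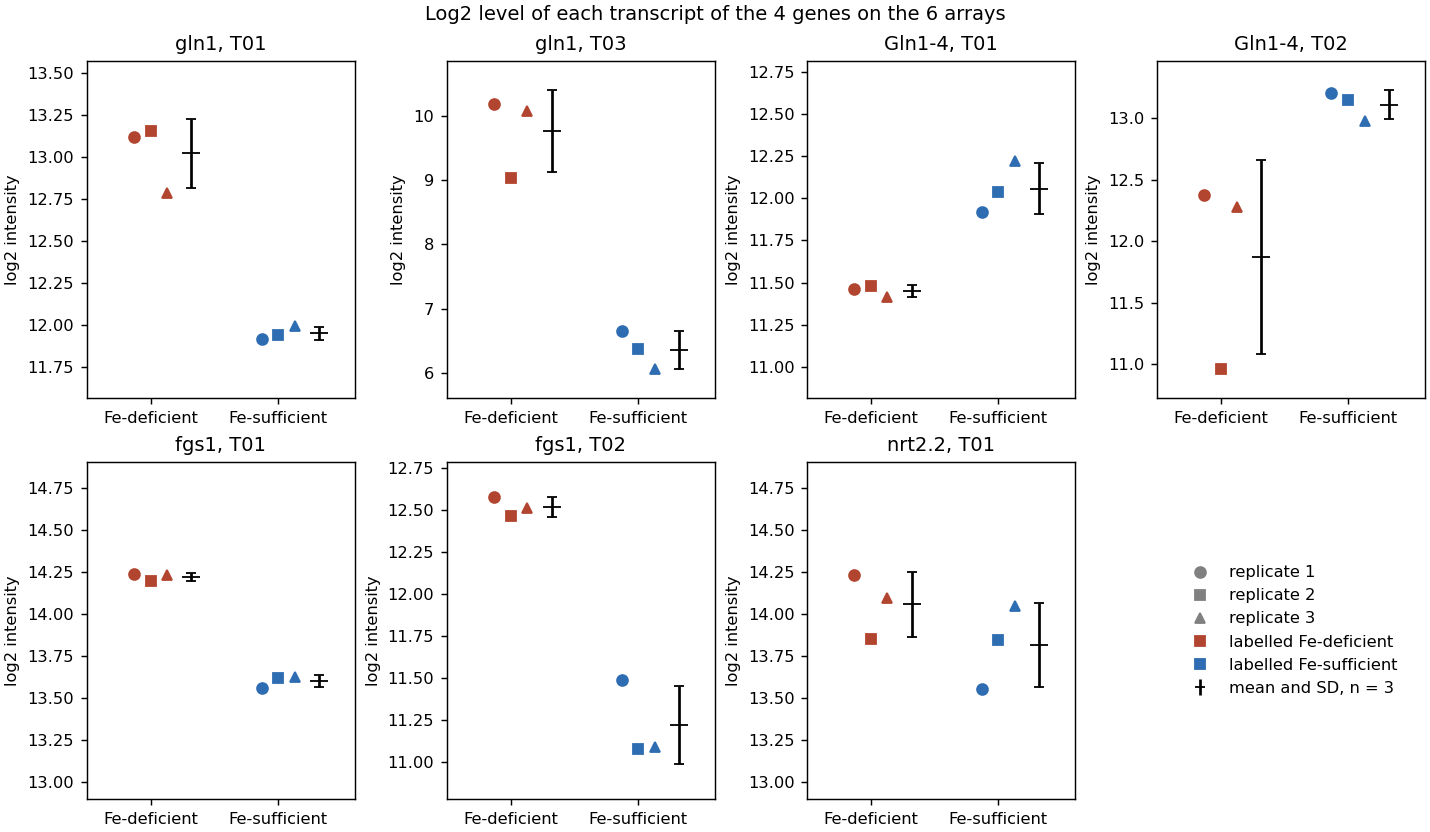
Log2 intensity (vertical axis, a separate range in each panel) of the 7 transcripts of gln1, Gln1-4, fgs1 and nrt2.2 on the 3 arrays labelled Fe-deficient (red) and the 3 labelled Fe-sufficient (blue), with symbols for the replicate number and bars for the mean and SD (n = 3). The red points lie above all blue ones for gln1 and fgs1 and below them for Gln1-4, and they mix with the blue ones for nrt2.2.

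Nitrate uptake comes first in the pathway. The gene nrt2.2 codes for a high-affinity nitrate transporter and has 1 transcript, read by 3 probes. Its log2 levels were 14.23, 13.85 and 14.09 in roots labelled Fe-deficient, against 13.55, 13.85 and 14.05 in roots labelled Fe-sufficient. The ranges overlapped, with the highest array labelled Fe-deficient and the lowest array labelled Fe-sufficient both being replicate 1. The means were 14.06 ± 0.19 and 13.82 ± 0.25 (SD, n = 3 each), a log2 difference of 0.24 ± 0.18 (SE) or 1.18-fold. Its 95% interval, -0.19 to 0.68, spans 0, and without the first array labelled Fe-sufficient the difference was 0.11. The 3 probes gave differences of 0.32, 0.18 and 0.36, all on the same side. Of all transcripts on the array, 20.7% had a larger positive difference than nrt2.2.

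The RefSeq table has an entry for a second NRT2 gene, nrt2.1, and it lists the model GRMZM2G010280 under both nrt2.1 and nrt2.2. That model therefore cannot be given to either name alone. Its transcript had log2 levels of 13.54, 13.02 and 13.34 in roots labelled Fe-deficient, against 13.17, 13.24 and 13.59 in roots labelled Fe-sufficient. The groups overlapped, with a log2 difference of -0.03 ± 0.19 (SE), an interval of -0.49 to 0.43 and a limma adjusted p of 0.960. As close relatives, both genes may share signal on these probes, which could not be looked at without probe sequences.

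The glutamine synthetase gene gln1 differed between single probes as well as between its transcripts. The brightest one, T01, had log2 levels of 13.12, 13.16 and 12.78 in roots labelled Fe-deficient, against 11.92, 11.94 and 12.00 in roots labelled Fe-sufficient. All 3 arrays labelled Fe-deficient lay above the others, and the arrays labelled Fe-sufficient lay close together. The means were 13.02 ± 0.20 and 11.95 ± 0.04 (SD, n = 3 each), a log2 difference of 1.07 ± 0.15 (SE) or 2.1-fold. Without the first array labelled Fe-sufficient the difference was 1.05, 1 of 2 settings in which T01 met the call. A larger positive difference was seen in 0.9873% of all transcripts.

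The second transcript, T03, had log2 levels of 10.18, 9.04 and 10.07 in roots labelled Fe-deficient, against 6.66, 6.37 and 6.07 in roots labelled Fe-sufficient. It was above background, defined by the 95th percentile of the random-sequence probes of an array, on 3 of 3 arrays labelled Fe-deficient and on 0 of 3 labelled Fe-sufficient. The measured means were 9.76 ± 0.63 and 6.36 ± 0.30 (SD, n = 3 each), a log2 difference of 3.40 ± 0.33 (SE) between the measured values. Because the dim side has only an upper bound, the fold is stated as at least 3.12-fold higher. It was the 1 transcript of the 7 that met the call, and it did so in 9 of 14 alternative settings; the call was lost without replicate 1 or 3 labelled Fe-deficient and without replicate 2 or 3 labelled Fe-sufficient, and with the replicate number as a block. Without the first array labelled Fe-sufficient the difference in the measured values was 3.55. Replicate 2 labelled Fe-deficient was the lowest of its group for T03 but the highest for T01.

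Single probes of gln1 T01 differed from each other. T01 was read by 2 probes that begin at bases 1392 and 2565 of the transcript. The first had log2 levels of 15.28, 15.22 and 14.93 in roots labelled Fe-deficient, against 12.84, 12.64 and 12.85 in roots labelled Fe-sufficient, a difference of 2.36. The second had 10.96, 11.09 and 10.64 in roots labelled Fe-deficient, against 10.99, 11.24 and 11.14 in roots labelled Fe-sufficient, a difference of -0.23 with overlapping groups. The T01 value of 1.07 is thus a summary of a probe that differed 5.15-fold and of one that did not separate the groups. The 3 probes of T03 start within 26 bases of each other, at bases 1527, 1539 and 1553, and had differences of 3.01, 3.43 and 3.82 between the measured values. None of them was above background on an array labelled Fe-sufficient, so that the sizes of these differences are not settled. They read nearly the same stretch, so they are not independent readings of the transcript.

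The RefSeq table lists a further gene model, GRMZM5G885867, under the same gene as gln1. Its brightest transcript, T02, had log2 levels of 11.19, 11.02 and 11.12 in roots labelled Fe-deficient, against 11.72, 11.13 and 11.01 in roots labelled Fe-sufficient. The groups overlapped, with a log2 difference of -0.18 ± 0.21 (SE), an interval of -0.67 to 0.32 and a limma adjusted p of 0.768. Its other transcript, T01, was above background on 1 array of each group, with a difference of -0.43 between the measured values (limma adjusted p of 0.478). Its measured values did not overlap between the groups. Of the 4 transcripts that the table assigns to this 1 gene, the ones with positive differences were thus both from GRMZM2G098290. Whether the models cover different parts of the gene could not be looked at without their sequences.

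**Figure D2:**
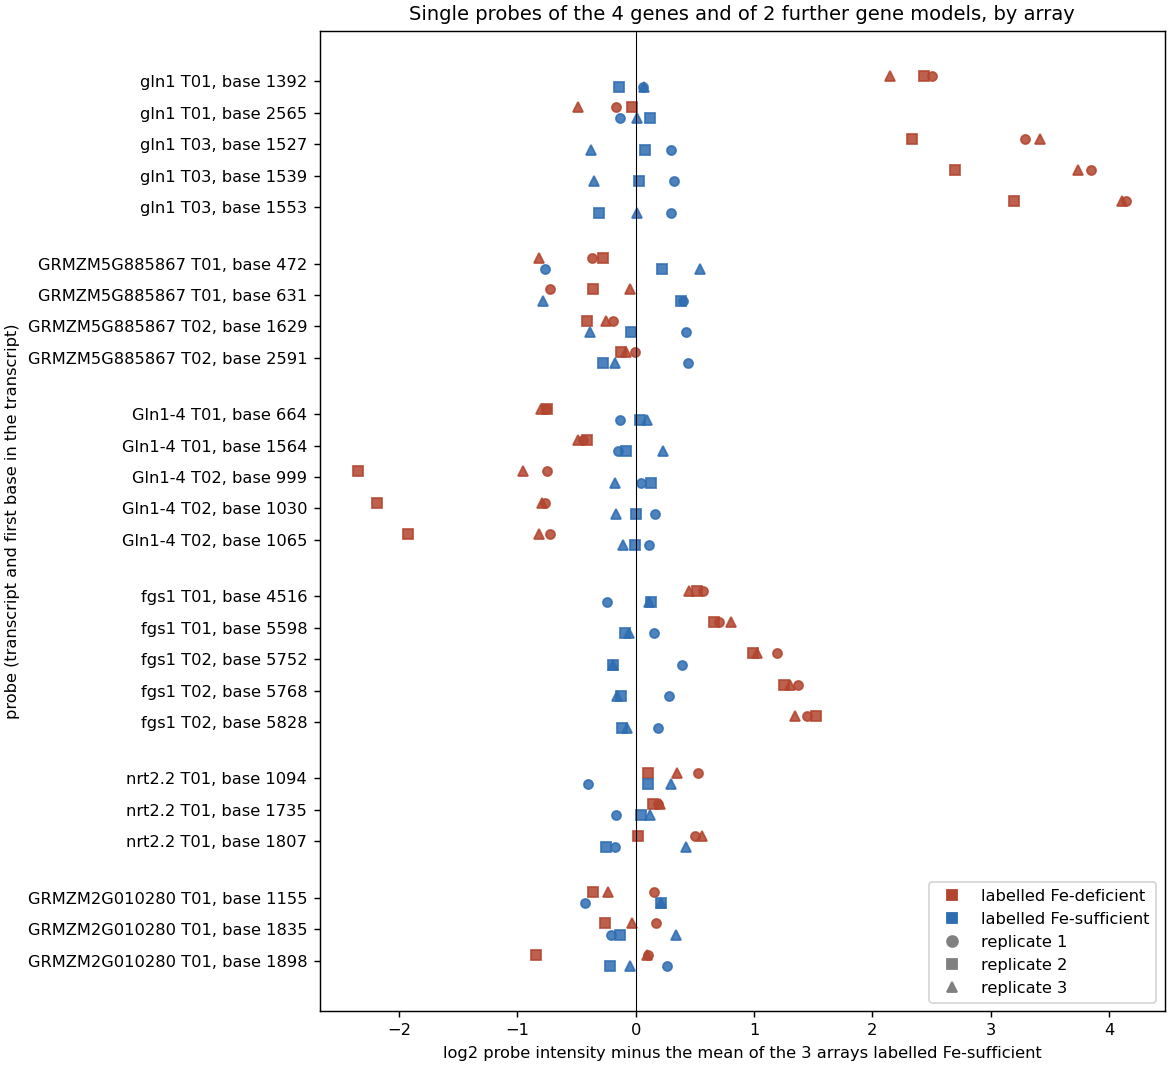
Log2 intensity of each probe minus the mean of the 3 arrays labelled Fe-sufficient (horizontal axis), with 1 row per probe named by its transcript and first base, red for arrays labelled Fe-deficient and blue for arrays labelled Fe-sufficient, and symbols for the replicate number. The probe of gln1 T01 at base 1392 lies near 2.36 and the one at base 2565 near -0.23, while the probes of fgs1 lie to the right and those of Gln1-4 to the left of all blue points.

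Gln1-4, a cytosolic glutamine synthetase gene, lay on the other side. Its brightest transcript, T02, had log2 levels of 12.38, 10.96 and 12.28 in roots labelled Fe-deficient, against 13.21, 13.15 and 12.98 in roots labelled Fe-sufficient. All arrays labelled Fe-deficient were below the others, and replicate 2 was far below its own group. The means were 11.87 ± 0.79 and 13.11 ± 0.12 (SD, n = 3 each), a log2 difference of -1.24 ± 0.37 (SE), or 2.36-fold lower on the arrays labelled Fe-deficient. Without replicate 2 labelled Fe-deficient the difference was -0.78, and without the first array labelled Fe-sufficient it was -1.19. A more negative difference was seen in 0.8133% of all transcripts.

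The other transcript of Gln1-4, T01, had the tighter replicates among the arrays labelled Fe-deficient. Its log2 levels were 11.46, 11.48 and 11.41 in roots labelled Fe-deficient, against 11.92, 12.04 and 12.22 in roots labelled Fe-sufficient. The means were 11.45 ± 0.03 and 12.06 ± 0.15 (SD, n = 3 each), a log2 difference of -0.61 ± 0.14 (SE), or 1.52-fold lower. Without the first array labelled Fe-sufficient the difference was -0.68. Replicate 2 labelled Fe-deficient, which was low for T02, was not low for T01. The probes of T01 at bases 664 and 1564 had differences of -0.77 and -0.45. The 3 probes of T02 lie between bases 999 and 1065 and had differences of -1.35, -1.24 and -1.16, with replicate 2 labelled Fe-deficient the lowest array for each of them.

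The last step, glutamate synthase, is where fgs1 acts. Its brightest transcript, T01, had log2 levels of 14.24, 14.19 and 14.23 in roots labelled Fe-deficient, against 13.56, 13.62 and 13.63 in roots labelled Fe-sufficient. These were the tightest replicates of the 7 transcripts, with means of 14.22 ± 0.02 and 13.60 ± 0.04 (SD, n = 3 each) and no overlap. The log2 difference was 0.62 ± 0.12 (SE), or 1.53-fold, and the probes at bases 4516 and 5598 gave 0.51 and 0.72. Without the first array labelled Fe-sufficient it was 0.60. The single probes varied more over the arrays labelled Fe-sufficient, with SDs of 0.21 at base 4516 and 0.13 at base 5598. The first array labelled Fe-sufficient was the lowest of its group at base 4516 and the highest at base 5598.

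The transcript T02 of fgs1 had log2 levels of 12.58, 12.46 and 12.51 in roots labelled Fe-deficient, against 11.49, 11.08 and 11.09 in roots labelled Fe-sufficient. The first array labelled Fe-sufficient was the highest of its group, and it was still below all arrays labelled Fe-deficient. The means were 12.52 ± 0.06 and 11.22 ± 0.23 (SD, n = 3 each), a log2 difference of 1.30 ± 0.16 (SE) or 2.46-fold. The difference was 1.43 without the first array labelled Fe-sufficient, 1 of 2 settings in which this transcript met the call. Its 3 probes lie between bases 5752 and 5828 and had differences of 1.07, 1.31 and 1.44. In the order of their first bases, the 5 fgs1 probes thus had differences of 0.51, 0.72, 1.07, 1.31 and 1.44, if both transcripts are counted from the same start, which was not tested. In that order their mean log2 levels in roots labelled Fe-sufficient were 13.75, 13.46, 11.34, 11.38 and 9.52. Position and probe brightness therefore cannot be told apart.

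Transcripts of the same gene model shared their direction and differed in size. The second model listed under the gln1 gene, GRMZM5G885867, had differences of -0.43 and -0.18, opposite to GRMZM2G098290. To compare transcripts within a model, the difference between the groups of one transcript was subtracted from that of the other. Only a constant offset in probe brightness drops out this way. Whether differences are smaller on brighter probes was not tested. For fgs1, T02 exceeded T01 by 0.68 on the log2 scale, or 1.6-fold, with no overlap of the groups in the T02 minus T01 value per array. The fgs1 transcript T02 was also dimmer than T01, with means of 11.22 and 13.60 in roots labelled Fe-sufficient. Brightness and transcript therefore cannot be told apart for this gene. For Gln1-4 the shift of T02 against T01 was -0.63, the groups overlapped, and it was -0.16 without replicate 2 labelled Fe-deficient. For gln1, T03 exceeded T01 by 2.33 in the measured values, without overlap, and by at least 0.57 with T03 held at its background bound. The T01 side averages the probe at base 1392, with a difference of 2.36, and the probe at base 2565, with -0.23. The bound of T03, a log2 difference of 1.64, lies below that of the probe at base 1392. At its bound, T03 thus shows no excess over that probe. Over arrays left out in turn, the shifts between transcripts ranged between 0.60 and 0.83 for fgs1, between -0.88 and -0.16 for Gln1-4 and between 2.06 and 2.76 for gln1.

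The opposite directions of gln1 and Gln1-4 can be put in 1 value per array, the log2 level of a gln1 transcript minus that of a Gln1-4 transcript. Between the T01 transcripts of both genes this value was 1.66, 1.68 and 1.37 in roots labelled Fe-deficient, against 0.00080, -0.095 and -0.22 in roots labelled Fe-sufficient. The levels themselves depend on the probes, so that only the shift between the groups is read, which was 1.68 or 3.20-fold. It lay between 1.62 and 1.78 over arrays left out in turn. Its gln1 side averages probes with differences of 2.36 and -0.23. Between gln1 T01 and Gln1-4 T02 the shift was 2.30 or 4.94-fold, and it was 1.78 without replicate 2 labelled Fe-deficient. With gln1 T03 held at its bound, the shift was at least 4.76-fold against Gln1-4 T01 and at least 7.35-fold against Gln1-4 T02. The sign was thus the same for all 4 pairs of transcripts, a direction that the choice of the genes had fixed.

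**Figure D3:**
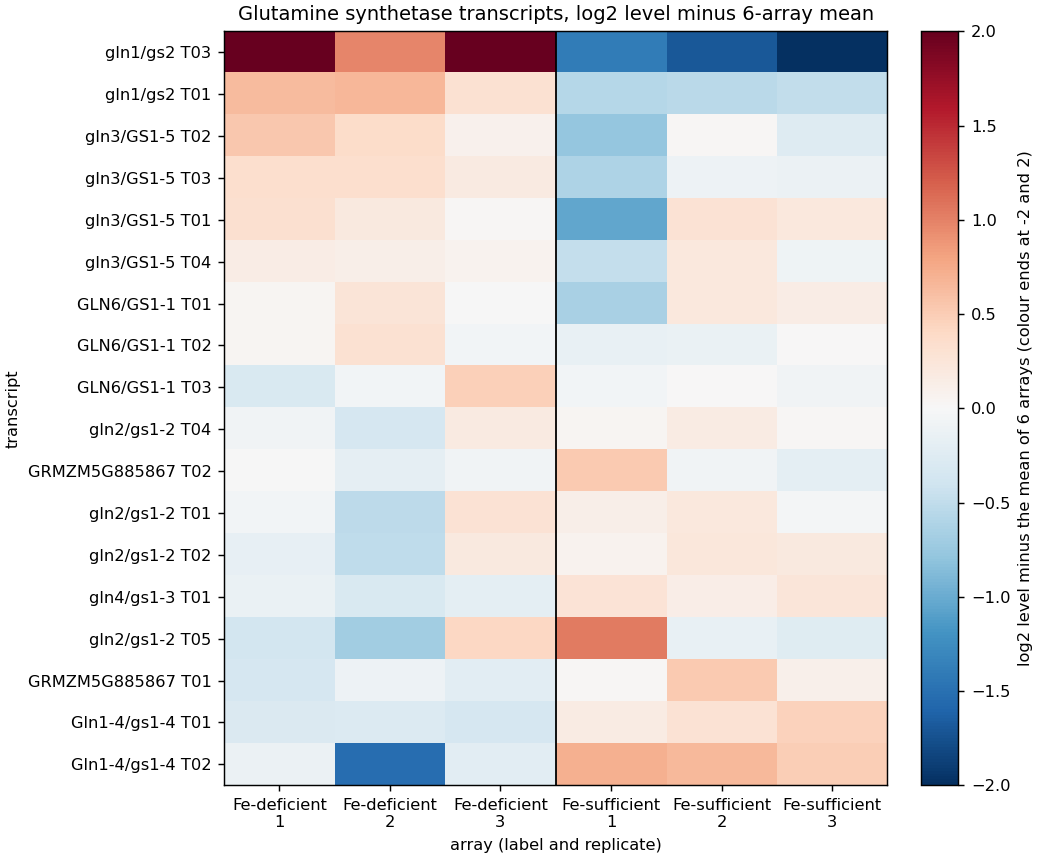
Log2 level minus the 6-array mean (colour, ending at -2 and 2) of 18 glutamine synthetase transcripts (rows, ordered by their difference between the groups) on the 3 arrays labelled Fe-deficient (left of the line) and the 3 labelled Fe-sufficient (right). The gln1 transcripts of GRMZM2G098290 are at the top and those of Gln1-4 at the bottom, and between them lie 14 transcripts of other models.

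The other glutamine synthetase models of the array, 5 in number with 14 transcripts, had differences in both directions. Of these transcripts 7 lay above 0 and 7 below, 4 had groups without overlap (17.4% over the whole array), and 0 were called (0.0853% over the whole array). Among the 4 was GRMZM5G885867 T01, which was above background on only 1 array of each group. The gene gs1-3 (gln4, GRMZM5G872068), a cytosolic form, had log2 levels of 13.10, 12.91 and 13.03 in roots labelled Fe-deficient, against 13.49, 13.35 and 13.46 in roots labelled Fe-sufficient. The groups did not overlap, with a log2 difference of -0.42 ± 0.13 (SE), on the same side as Gln1-4, and the limma adjusted p was 0.444. For gln3 (GRMZM2G046601), with the synonym GS1-5, the transcripts T02 and T03 had differences of 0.66 and 0.56 without overlap (limma adjusted p of 0.463 and 0.447), while the brightest, T04, had 0.23 with overlap (limma adjusted p of 0.664). On the first array labelled Fe-sufficient all 4 gln3 transcripts were at their lowest. GLN6 (GS1-1) had a difference of 0.19 (limma adjusted p of 0.652) and gln2 (gs1-2) one of -0.19 (limma adjusted p of 0.760) in their brightest transcripts.

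Nitrogen genes were listed by symbol, which gave 22 gene models with the 4 genes included. The list was drawn up with earlier results of these data known, so its counts are a description and carry no test. Among the 18 others, taken by their brightest transcript, 2 rose, 0 fell and 16 were not called, where 0.0637% of all genes on the array were called higher and 0.0153% lower. With the same fold and p left unadjusted at 0.05, 4 were higher and 0 lower, and 5.34% of all transcripts passed in either direction. For 5 of the 18 the groups had no overlap, against 17.3% of all genes, and the median log2 difference of the 18 was 0.02, against 0.01 for all genes.

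Both genes that rose act between uptake and assimilation, in the reduction of nitrate to ammonium. The nitrate reductase gene NAR (GRMZM5G878558) had log2 levels of 14.51, 15.04 and 13.88 in roots labelled Fe-deficient, against 10.90, 9.16 and 9.69 in roots labelled Fe-sufficient. Its log2 difference was 4.56 ± 0.48 (SE; limma adjusted p of 0.0416). The nitrite reductase gene NIR (GRMZM2G079381) had 14.21, 14.59 and 14.03 in roots labelled Fe-deficient, against 11.15, 10.73 and 10.46 in roots labelled Fe-sufficient. Its difference was 3.50 ± 0.23 (SE; limma adjusted p of 0.00878), and 3 of its 5 transcripts were called. The nitrate reductase gene NNR1 (GRMZM2G568636) had 13.11, 13.78 and 12.77 in roots labelled Fe-deficient, against 10.99, 10.77 and 10.20 in roots labelled Fe-sufficient, and was not called (log2 difference of 2.57 ± 0.31, SE; limma adjusted p of 0.0695). The calls depended on single arrays: 0 of the 18 were called higher without replicate 1 labelled Fe-deficient and without replicate 2 or 3 labelled Fe-sufficient, 1 without replicate 2 or 3 labelled Fe-deficient, and 3 without replicate 1 labelled Fe-sufficient. They also depended on the processing, with 1 called (NIR) under the RMA-type background correction and 0 under a block on replicate number. Without replicate 1 labelled Fe-sufficient the differences were 5.05 for NAR, 3.68 for NIR and 2.74 for NNR1.

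**Figure D4:**
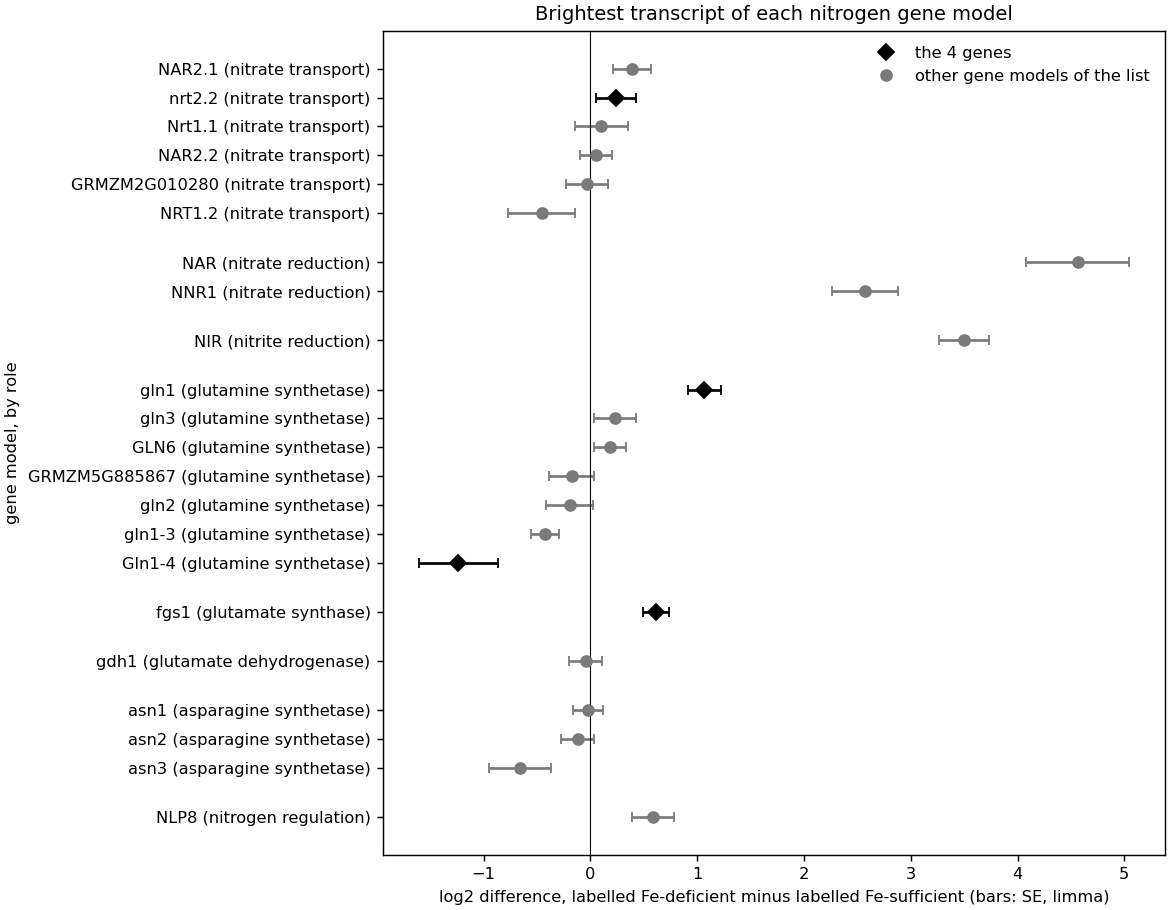
Log2 difference, labelled Fe-deficient minus labelled Fe-sufficient (horizontal axis, bars for the SE of limma), in the brightest transcript of 22 nitrogen gene models grouped by role, with black diamonds for gln1, Gln1-4, fgs1 and nrt2.2 and grey circles for the others. NAR and NIR lie at 4.56 and 3.50, gln1 and fgs1 at 1.07 and 0.62, and Gln1-4 at -1.24.

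The 5 other models of nitrate transport had differences between -0.46 and 0.39, and 0 were called. NAR2.1 (GRMZM2G179294), the partner protein that NRT2 transporters need, had log2 levels of 14.21, 13.88 and 14.01 in roots labelled Fe-deficient, against 13.46, 13.55 and 13.91 in roots labelled Fe-sufficient. The difference was 0.39 ± 0.18 (SE), with an interval of -0.02 to 0.81 and a limma adjusted p of 0.494, and the array order within each group was that of nrt2.2. NRT1.2 had a difference of -0.46 (limma adjusted p of 0.606) and Nrt1.1 one of 0.10 (limma adjusted p of 0.894). NAR2.2 was not above background on any array. Among the asparagine synthetases, which pass the amide nitrogen of glutamine on to aspartate, asn3 had a difference of -0.66 (limma adjusted p of 0.491), asn2 of -0.12 and asn1 of -0.02. For Nrt1.1 and asn2 the transcript level lay below the background threshold of each array, although a single probe or more exceeded it. Their small differences are therefore values near the floor. The glutamate dehydrogenase gene gdh1 had -0.04 (limma adjusted p of 0.931). NLP8, named as a member of the NIN-like proteins, had 0.59 without overlap of the groups (limma adjusted p of 0.456).

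The transcripts most like each gene were those with the highest Pearson r of log2 levels over the 6 arrays, among named transcripts above background on all arrays (1326 to 1328 compared) whose SD over the arrays was at least 0.3. These points share their arrays and groups, and the values are a description. For gln1 T01 they were 2 transcripts of TAZ1 (r of 0.993 and 0.992) and GLK52 (0.991). For fgs1 T01 they were the ferredoxin-NADP reductase gene fnr1 (0.995), GLK52 (0.993) and gpt (0.990), so that GLK52 stood near both genes. GLK52, named as a G2-like transcription factor, had log2 levels of 12.06, 11.96 and 11.63 in roots labelled Fe-deficient, against 9.31, 9.60 and 9.57 in roots labelled Fe-sufficient. For Gln1-4 T02 they were the homeobox gene HB115 (0.993), bZIP111 (0.993) and cop2 (0.989), all with replicate 2 labelled Fe-deficient as their lowest array. For nrt2.2 the highest values were smaller, with the phosphate transporter gene pht9 at 0.916 and emp2 and SGR2 both at 0.894.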

How the data were processed

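The deposited array files hold 1 linear probe intensity per array; the authors had read the scanned images with NimbleScan and normalized between arrays by quantiles, and the sources used here do not say whether background was subtracted. The planned background and quantile steps for raw values were therefore left out. After log2 transformation, the 1 to 3 probes of a transcript were joined by median polish. The 59756 transcripts were compared with limma (version 3.58.1, functions lmFit and eBayes, run under R 4.3.3) without covariates, and with Benjamini-Hochberg adjustment over all of them, after the procedure had been tested on simulated data. Background was set per array, and 1 probe of a transcript had to exceed the 95th percentile of the random probes for it to count as above background. For a transcript above background in only 1 group, the fold is the mean of the bright group over the mean, per dim array, of the higher of its own value and the lowest probe signal above background. With 3 arrays per group, the number of arrays limits the precision.

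The 4 genes, the gene lists and the tests were chosen with earlier results of these data known. Named are all transcripts of the 4 genes, the called genes of the nitrogen list, and for each gene the 3 transcripts most like its brightest one; the other list members named were chosen after their values were seen. Names come from a RefSeq gene table of another assembly, in which 18172 of 39219 genes matched 1 entry and 519 several; no coordinates were taken from it. Of the models matched by symbol, 2 were left out since their entries name genes outside nitrogen metabolism. The alternatives tried were 2 background corrections (RMA-type, and normexp with offset 50), median scaling and cyclic loess for normalization, probe means, weights per array, removal of dim transcripts, a block on replicate number, leaving out each array, and other thresholds. Tables and figures were made with Python 3.11.15 (matplotlib 3.10.9, pandas 2.3.3 and numpy 2.4.6).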

Additional observations from a re-analysis of the deposited data

How the results depend on the processing

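The sign of the log2 difference was the same for all 7 transcripts of gln1, Gln1-4, fgs1 and nrt2.2 in each setting run for them, with 5 above 0 and 2 below; the filter on dim transcripts was not run for these signs. Over arrays left out in turn, the brightest transcripts ranged between 1.00 and 1.19 for gln1, -1.49 and -0.78 for Gln1-4, 0.60 and 0.63 for fgs1, and 0.11 and 0.36 for nrt2.2. With array weights Gln1-4 T02 had -0.87. Taking each probe alone, a choice made after seeing the data, gave 2.36 and, with the sign turned, -0.23 for gln1, and 0.51 and 0.72 for fgs1. The background correction of the RMA type gave 4.15 for the dim transcript gln1 T03, and it left 1 of the 18 other nitrogen genes called higher in place of 2. That count was 4 at an unadjusted p, and it ranged between 0 and 3 over arrays left out. Among all transcripts of the 18 genes, 4 were called higher, 1 of NAR and 3 of NIR. Arrays of the 2 groups with the same replicate number had weakly correlated deviations from their group means (-0.12, -0.0082 and 0.070). With 3 arrays per group this cannot show whether the samples were paired by cultivation. With the replicate block 0 of the 18 other nitrogen genes and 0 of all transcripts were called. The count over all transcripts was 51 in the main comparison (42 higher, 9 lower), 28 with the RMA-type background and 165 with array weights. The study reported many more modulated transcripts from these arrays at the same thresholds, most of them higher, so its count was not reproduced here. Over arrays left out the count ranged between 2, without replicate 1 labelled Fe-deficient, and 1096, without replicate 1 labelled Fe-sufficient. Of the 1096, 162 were higher and 934 lower. The deposited value table equalled the array files, so that it gave no separate value, and no slide block could be fitted on 1 slide.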
